A study of Mus musculus with 12 samples.

Results

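Tumours of Tm1N3 cells were compared with tumours of Tm1G3 cells, both grown in mice that lack galectin-3. The labels call Tm1N3 a galectin-3 expressing and Tm1G3 a galectin-3 silenced melanoma line. The comparison takes the 3 arrays of Gal3 -/- mice injected with Tm1N3 minus the 3 arrays of Gal3 -/- mice injected with Tm1G3, which are 6 of the 12 arrays of the series, over all 1246 probe sets of a focused Affymetrix array. The other 6 arrays are the same lines in wild-type mice, again 3 for each line. The series addressed how galectin-3 of the tumour cells and galectin-3 of the host each bear on tumour growth. Per the series text, the mice were syngeneic, and galectin-3 was put back into a silenced line with a coding plasmid. Strain, age, sex, time after injection and whether the silenced line carried an empty plasmid are not given in the sources used here. All 6 tumours share the host deletion, so the line was the only labelled difference between them. Each kind of cell is represented by 1 line, and anything else in which the lines differ cannot be told apart from galectin-3.

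Galectin-3, encoded by Lgals3, is a lectin that binds galactose-containing glycans on cell surfaces and in the matrix, and it also acts inside cells. In melanoma and in macrophages it is known as an abundant protein with roles in adhesion, survival and immune regulation. The array measures genes that build, carry and read glycans, together with cytokines, growth factors and their receptors.

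Lgals3, the gene by which the labels name the lines, did not separate them. In Tm1N3 tumours of knockout hosts its log2 level was 9.35, 9.69 and 10.55 in replicates 1, 2 and 3. In Tm1G3 tumours it was 9.15, 9.80 and 8.98. The highest array was a Tm1N3 tumour and the lowest a Tm1G3 tumour, and the ranges overlapped. The difference, Tm1N3 minus Tm1G3, was 0.55 ± 0.33 (moderated SE, n = 3 against 3) with a limma adjusted p of 0.696, and a two-sided exact permutation test gave p = 0.3, where 0.1 is the smallest that 3 against 3 arrays allow. Without Tm1N3 replicate 3 of the knockout hosts the difference was 0.21, and without replicate 1 it was 0.81. The probe set lay between percentiles 85.2 and 94.9 of the probe sets of its array in all 12 tumours, also in the 3 labelled as a silenced line in a knockout host. Its suffix marks probes that can match more than 1 transcript. Directions below are therefore given for the lines as labelled. No melanocyte marker looked for (Tyr, Dct and Mlana among them) had a named probe set, so the tumour type could not be checked by them.

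The arrays were close to each other, with medians from 5.51 to 5.60 on the log2 scale. Across probe sets, Pearson correlations ran from 0.992 to 0.998 within the Tm1G3 tumours of knockout hosts and from 0.979 to 0.996 within the Tm1N3 tumours. The largest axis of variation among the 6 knockout host arrays did not follow the line. The first principal component held 55.8% of the variance, and 5.22% of it lay between lines. The second held 23.4%, and 90.5% of it lay between lines.

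The lines differed in 9 probe sets, all of named genes. Il18, Frem1, Havcr2, Kit, Il17rd, Slc35f1 and Il17rc were lower in Tm1N3 tumours, and Il3ra and B3galt4 were higher. They encode a cytokine, 5 receptors of the immune and growth factor families, a matrix protein, a carrier of the nucleotide sugar transporter family and a glycosyltransferase. The differences ran from 1.27-fold for B3galt4 to 3.94-fold for Slc35f1. These 9 are 0.722% of the probe sets tested by limma with Benjamini-Hochberg adjustment and a threshold of 0.05, with 0.161% called higher and 0.562% called lower in Tm1N3. The 3 and 3 arrays did not overlap for 171 probe sets (13.7%). At an unadjusted p under 0.05 there were 118 probe sets (9.47%), 39 higher and 79 lower in Tm1N3, and after a further quantile normalization 52 higher and 55 lower. The count was 5 without Tm1G3 replicate 1 and 5 without Tm1G3 replicate 2 of the knockout hosts, and 4 when the wild-type arrays gave no part of the estimate of spread. Of those 4, Il18, Frem1 and Slc35f1 were among the 9, and the rest of the 9 did not pass in that fit. The labels do not state that replicates are separate animals, so a p-value here reflects the spread of these samples alone, and the number of arrays limits its precision.

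**Figure D1:**
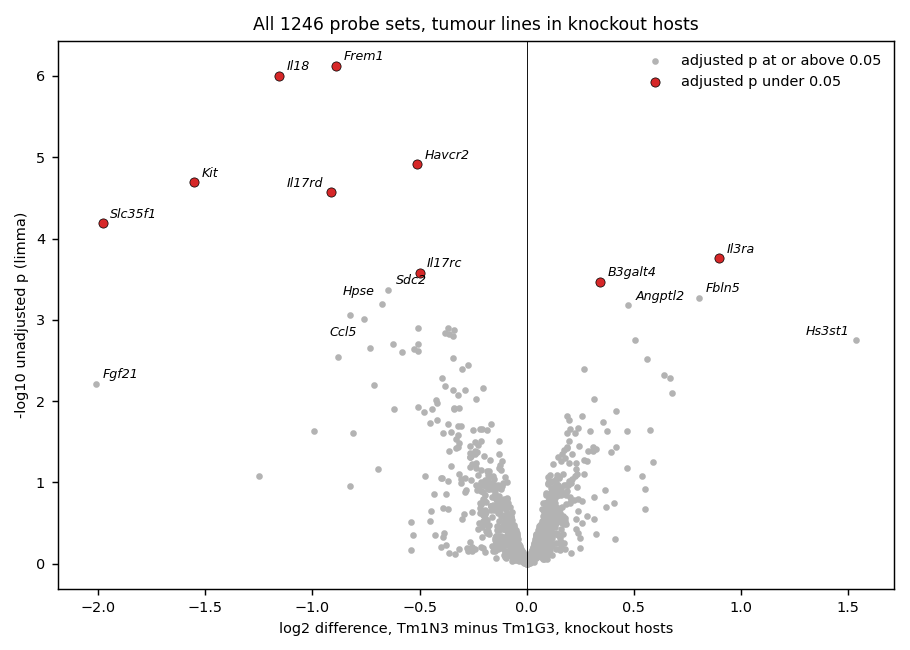
Log2 difference in level between Tm1N3 and Tm1G3 tumours of knockout hosts (horizontal axis) against -log10 of the unadjusted limma p (vertical axis) for the 1246 probe sets, each a point. The 9 red points have an adjusted p under 0.05, with 7 on the left (lower in Tm1N3) and 2 on the right, and Fgf21 and Hs3st1 lie as far out at smaller heights.

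**Figure D2:**
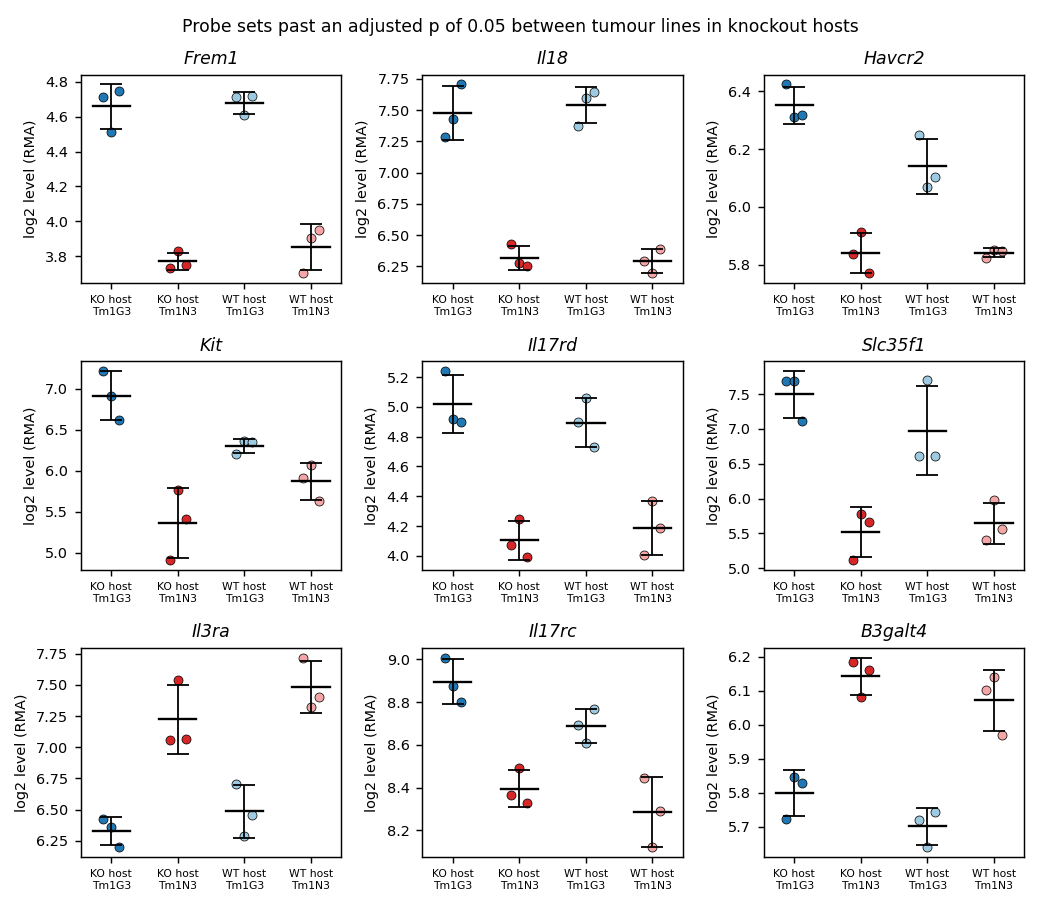
Log2 levels of the 9 probe sets past the threshold on every array (points), with the mean (long bar) and SD (short bars) of the 3 arrays of each group of host and line. In knockout hosts the 3 Tm1N3 and the 3 Tm1G3 arrays do not overlap for any of the 9.

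The promoters of 3 of these genes are shown, the cytokine and both receptors with the most opposed differences, because they differ in base composition as well as in direction. They are RefSeq's starts on GRCm38.p6, from 250 bases before to 50 after the start, written 5′ to 3′ in the direction of the gene. Capitals mark matches on either strand to the E-box in its form CACGTG or in its other form CATGTG, to the GC box GGGCGG or to the TATA box TATAAA, with overlapping or adjoining matches running together. The Il18 window is chr9:50554450-50554749, plus strand. The Kit window is chr5:75574737-75575036, plus strand, the first of 2 RefSeq starts. The Il3ra window is chr14:14346245-14346544, plus strand.
Il18: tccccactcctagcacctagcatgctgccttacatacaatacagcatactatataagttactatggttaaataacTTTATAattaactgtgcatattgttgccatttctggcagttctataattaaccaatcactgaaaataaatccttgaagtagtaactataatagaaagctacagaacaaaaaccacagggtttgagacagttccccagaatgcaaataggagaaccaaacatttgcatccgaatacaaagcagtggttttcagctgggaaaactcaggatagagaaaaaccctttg
Kit: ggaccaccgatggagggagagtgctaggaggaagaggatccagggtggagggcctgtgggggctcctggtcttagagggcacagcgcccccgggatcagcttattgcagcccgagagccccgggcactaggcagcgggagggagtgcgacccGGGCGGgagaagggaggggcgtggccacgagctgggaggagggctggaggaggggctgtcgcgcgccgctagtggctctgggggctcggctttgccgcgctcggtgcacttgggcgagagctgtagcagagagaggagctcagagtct
Il3ra: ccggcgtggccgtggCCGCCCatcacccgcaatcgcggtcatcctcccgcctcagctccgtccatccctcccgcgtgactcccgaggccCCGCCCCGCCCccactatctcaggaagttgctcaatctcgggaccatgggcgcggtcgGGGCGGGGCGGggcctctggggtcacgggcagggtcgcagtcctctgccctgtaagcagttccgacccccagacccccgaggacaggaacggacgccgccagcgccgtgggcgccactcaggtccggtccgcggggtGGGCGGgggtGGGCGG
The Il18 window was 36.7% G or C with 1 CG pair, against 69.0% and 20 in Kit, 74.3% and 35 in Il3ra, and a median of 52.7% and 7 over the 32851 mouse promoters of this length. The Il18 window held the TATA box once, on the opposite strand, and Il3ra held the GC box 7 times. All 9 genes matched a promoter. The GC box was in 6 of the 9, against 35.7% of all promoters, and the TATA box in 1 of the 9, against 13.6%. The E-box forms were in 0 of the 9, against 7.15% for the first and 14.2% for the other. These are matches of letters only.

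Il18, a cytokine of the interleukin 1 family that with interleukin 12 induces interferon gamma, was lower in Tm1N3 tumours. Its log2 level was 6.43, 6.28 and 6.25 in Tm1N3 and 7.29, 7.43 and 7.71 in Tm1G3 tumours. Every Tm1N3 array lay below every Tm1G3 array, by more than the range of either group. The difference was -1.15 ± 0.11 (2.23-fold, limma adjusted p = 0.000618), and it passed the threshold in each of 12 fits that left out 1 array. Around it, the list of 13 genes of the interleukin 18, interleukin 12 and interferon gamma axis held 9 negative and 4 positive differences with a median of -0.04, against -0.01 over all 908 named genes, and only Il18 passed. Il12rb1, a chain of the interleukin 12 receptor, stood at 6.05, 6.41 and 6.27 in Tm1N3 and at 7.35, 6.97 and 6.61 in Tm1G3 tumours (-0.73 ± 0.18, adjusted p = 0.105). Ifngr2, a chain of the interferon gamma receptor, was 8.11, 8.28 and 8.24 against 8.55, 8.58 and 8.53 (-0.34 ± 0.08, adjusted p = 0.0921). The arrays of the lines did not overlap for either gene, and neither passed the test.

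Of 43 interleukin receptor genes, Il17rd and Il17rc were lower and Il3ra was higher in Tm1N3 tumours, and 40 did not pass, beside 0.562% of all probe sets called lower and 0.161% called higher. Il17rd, a member of the interleukin 17 receptor family known to restrain fibroblast growth factor signalling, was 4.07, 4.25 and 3.99 in Tm1N3 and 5.24, 4.92 and 4.90 in Tm1G3 tumours. The groups lay apart by more than their ranges, with a difference of -0.92 ± 0.13 (1.89-fold, limma adjusted p = 0.00668). The mean level of Il17rd was low, near percentile 31.7 of all probe sets. Il17rc, which pairs with Il17ra to bind interleukins 17A and 17F, was 8.37, 8.49 and 8.33 against 9.01, 8.88 and 8.80. Its groups did not overlap, and the difference was -0.50 ± 0.09 (1.41-fold, adjusted p = 0.0408). Its partner Il17ra differed by -0.23 ± 0.12 (adjusted p = 0.618). Il17b, a ligand of the family, had a difference of the opposite sign, 0.39 ± 0.17 (adjusted p = 0.491), and the 11 genes of the interleukin 17 list had a median of -0.05. The Il17rc call rested on the array set. It was kept only without replicate 1 or 2 of the Tm1N3 tumours of wild-type hosts, and the adjusted p was between 0.0537 and 0.168 without any other array. It was also lost with a random block for each replicate number and line (adjusted p = 0.0607).

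Il3ra, the ligand-binding chain of the interleukin 3 receptor, was higher in Tm1N3 tumours. The levels were 7.06, 7.54 and 7.07 in Tm1N3 and 6.42, 6.36 and 6.20 in Tm1G3 tumours. Replicate 2 was highest among the Tm1N3 arrays, and no Tm1G3 array reached the lowest of them. The difference was 0.90 ± 0.16 (1.86-fold, limma adjusted p = 0.0310). The call was lost without any of the Tm1G3 arrays or Tm1N3 replicate 1 or 2 of the knockout hosts, and without Tm1G3 replicate 3 or Tm1N3 replicate 3 of the wild-type hosts, with an adjusted p from 0.0511 to 0.130, and with the random replicate block (adjusted p = 0.0539). The sign was the same in all 12 such fits.

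Kit, the receptor tyrosine kinase for stem cell factor that melanocytes and mast cells need, showed the second largest difference of those that passed. Its level was 4.91, 5.76 and 5.41 in Tm1N3 and 7.22, 6.91 and 6.62 in Tm1G3 tumours of knockout hosts. The lowest Tm1G3 array was above the highest Tm1N3 array, though the arrays spread within both groups. The difference was -1.55 ± 0.21 (2.93-fold, limma adjusted p = 0.00635). Among the 13 colony stimulating factor and receptor genes, Kit was the only one lower and Il3ra the only one higher at the threshold, and Csf1, the growth factor of macrophages, differed by -0.40 ± 0.21 (adjusted p = 0.677). Kit was also the only 1 of the mast cell markers on the array.

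Havcr2, the gene of the checkpoint receptor TIM-3 on T cells and myeloid cells, was 5.84, 5.91 and 5.77 in Tm1N3 and 6.43, 6.31 and 6.32 in Tm1G3 tumours. The 3 Tm1N3 arrays lay within a narrow range below all Tm1G3 arrays. The difference was -0.51 ± 0.07 (1.42-fold, limma adjusted p = 0.00508). The other 3 receptors of the TIM family ranged from -0.07 to 0.06 and did not pass. Galectin-9, known as a ligand of TIM-3, is encoded by Lgals9, whose difference was -0.39 ± 0.29 (adjusted p = 0.800).

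None of the 9 galectin genes passed, with 6 positive and 3 negative differences and a median of 0.05. Lgals7, a galectin of stratified epithelia, was 8.54, 8.25 and 7.53 in Tm1N3 and 7.29, 7.52 and 7.48 in Tm1G3 tumours. Replicate 3 of Tm1N3 lay just above the Tm1G3 range and the other 2 well above it (0.68 ± 0.21, limma adjusted p = 0.223). Lgalsl, a galectin-like gene, differed by -0.42 ± 0.13 (adjusted p = 0.248), with overlapping arrays. Lgals1, a galectin abundant in tumours, differed by -0.13 ± 0.09 (adjusted p = 0.764).

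Frem1, a protein of the extracellular matrix beneath epithelia, had the smallest p of all probe sets. Its level was 3.73, 3.83 and 3.75 in Tm1N3 and 4.72, 4.51 and 4.75 in Tm1G3 tumours. The gap between the groups was several times their ranges. The difference was -0.89 ± 0.08 (1.85-fold, limma adjusted p = 0.000618), at a mean level near percentile 25.6 of all probe sets. Of the 9 fibroblast and matrix genes it was the only one to pass. Fbln5, a protein of elastic fibres, lay in the other direction at 5.68, 5.89 and 5.23 in Tm1N3 and 4.60, 4.95 and 4.85 in Tm1G3 tumours (0.80 ± 0.16, adjusted p = 0.0605). Tenm4, a transmembrane teneurin, differed by -0.52 ± 0.13 (adjusted p = 0.105).

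Slc35f1, a member of the family of nucleotide sugar transporters, had the largest difference of those that passed. It was 5.11, 5.78 and 5.66 in Tm1N3 and 7.69, 7.69 and 7.11 in Tm1G3 tumours. The lowest Tm1G3 array stood above the highest Tm1N3 array by more than the range of either group. The difference was -1.98 ± 0.31 (3.94-fold, limma adjusted p = 0.0135), and its probe set is of the kind that can match more than 1 transcript. The call was lost without Tm1G3 replicate 1, Tm1G3 replicate 2 or Tm1N3 replicate 1 of the knockout hosts (adjusted p = 0.0831, 0.0973 and 0.0537). The other 51 genes of nucleotide sugar supply and transport did not pass, and the median of all 52 was -0.01.

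B3galt4, which adds galactose in the synthesis of the ganglioside GM1, was higher in Tm1N3 tumours, at 6.19, 6.08 and 6.16 against 5.72, 5.85 and 5.83. The groups did not overlap, and the difference was the smallest of those that passed, 0.34 ± 0.07 (1.27-fold, limma adjusted p = 0.0472). It was kept only without replicate 2 or 3 of the Tm1N3 tumours of wild-type hosts, and the adjusted p was between 0.0537 and 0.179 without any other array. It was lost with the replicate number as a random block (adjusted p = 0.0613) or a fixed block (adjusted p = 0.0823). Among other losses were a further quantile normalization, arrays centred on their medians, and a fit of only the arrays compared. In all it passed in 6 of 23 alternative fits. The other 15 galactosyltransferases did not pass, B4galt4 among them with -0.62 ± 0.15 (adjusted p = 0.0996). No gene passed among 19 sialyltransferases, 10 fucosyltransferases, 25 N-acetylglucosaminyltransferases and 19 polypeptide N-acetylgalactosaminyltransferases, whose medians were -0.06, -0.01, -0.03 and 0.05. Among them were Mgat3, the enzyme that bisects N-glycans (-0.37 ± 0.08, adjusted p = 0.0921), and Fut11, a fucosyltransferase (0.56 ± 0.15, adjusted p = 0.117). St6gal1, the main enzyme that puts α2,6-linked sialic acid on N-glycans, was 11.27, 11.61 and 11.23 in Tm1N3 and 11.89, 11.91 and 11.82 in Tm1G3 tumours (-0.51 ± 0.17, adjusted p = 0.280).

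The probe set just outside the threshold was Sdc2, a syndecan that carries heparan sulfate on the cell surface, with an adjusted p of 0.0534 against 0.0472 for B3galt4 just inside. Its arrays were tight, at 8.23, 8.42 and 8.25 in Tm1N3 and 8.96, 8.93 and 8.95 in Tm1G3 tumours (-0.65 ± 0.13). None of the 12 heparan sulfate proteoglycan cores passed, and 8 of them had negative differences, among them the glypican Gpc6 (-0.51 ± 0.12, limma adjusted p = 0.0996) and the syndecan Sdc4 (-0.33 ± 0.14, adjusted p = 0.475). Of 29 genes that make or cut heparan sulfate none passed either. Hs3st1, which adds 3-O-sulfate to heparan sulfate, was 5.29, 6.80 and 5.88 in Tm1N3 and 4.55, 4.44 and 4.37 in Tm1G3 tumours. The Tm1G3 arrays were even and low, the Tm1N3 arrays were all higher but spread widely, and the difference of 1.54 ± 0.37 had an adjusted p of 0.0972. Hpse, the heparanase that cleaves these chains, was 10.40, 10.42 and 10.13 in Tm1N3 and 11.14, 11.01 and 10.83 in Tm1G3 tumours (-0.68 ± 0.14, adjusted p = 0.0629).

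Fgf21, an endocrine fibroblast growth factor, had the largest difference of all probe sets and did not pass. It was 6.96, 5.56 and 5.67 in Tm1N3 and 8.33, 7.95 and 7.94 in Tm1G3 tumours. Replicate 1 of Tm1N3 stood well above the other 2 and still below every Tm1G3 array, and the difference was -2.01 ± 0.59 (4.03-fold, limma adjusted p = 0.196). The median of the 26 fibroblast growth factor genes was 0.04, and none passed. Fgf1 differed by -0.51 ± 0.13 (adjusted p = 0.106). Of 35 genes of the TGF beta family none passed, Tgfbr1, its type I receptor, being 0.37 ± 0.14 (adjusted p = 0.367), and of 37 Notch and Wnt genes none passed, with a median of 0.03. Hes1, a transcription factor downstream of Notch, was not in that list. Its level was 6.30, 6.50 and 6.88 in Tm1N3 and 7.25, 7.15 and 7.02 in Tm1G3 tumours (-0.58 ± 0.15, adjusted p = 0.106). Angptl2, an angiopoietin-like secreted factor, was higher on every Tm1N3 array, at 9.24, 9.53 and 9.68 against 9.09, 8.98 and 8.96 (0.47 ± 0.10, adjusted p = 0.0629), and none of the 21 angiogenic factors passed.

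No gene passed in the list for lysosomal breakdown of glycans and lipids, which was chosen with earlier results of these data known. Of 31 such genes 5 were higher and 6 lower at an unadjusted p under 0.05, beside 3.13% higher and 6.34% lower of all probe sets. On the higher side were Galc, which removes galactose from galactosylceramide (0.51 ± 0.12, limma adjusted p = 0.0972), and Mcoln3. The list holds Mcoln3 as an ion channel of the endolysosomal membrane, not as an enzyme (0.64 ± 0.18, adjusted p = 0.163). On the lower side, besides Hpse, was Galns, a sulfatase of keratan sulfate breakdown (-0.38 ± 0.09, adjusted p = 0.0943). Hexa, a glycosidase, differed by -0.32 ± 0.12 (adjusted p = 0.367).

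**Figure D3:**
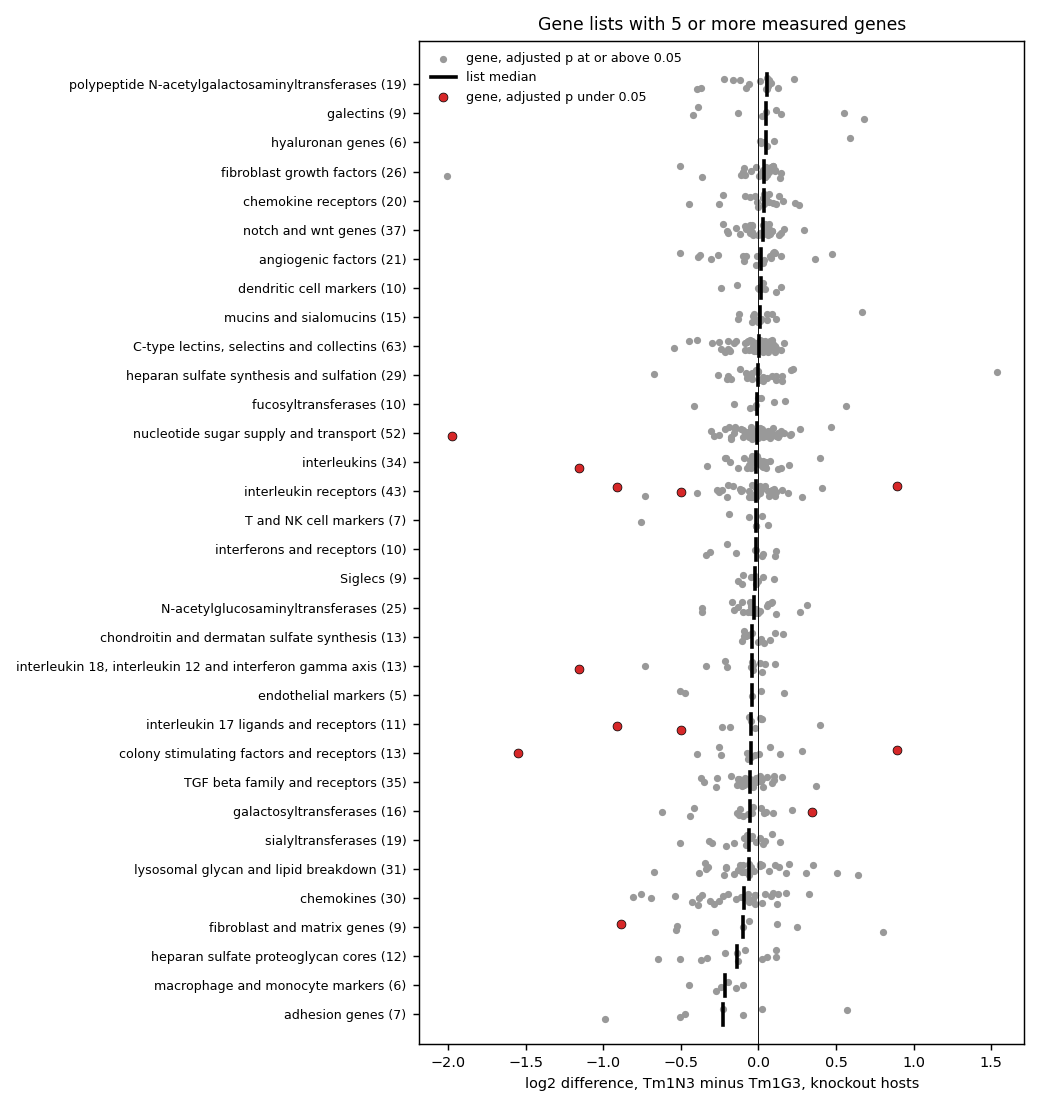
Log2 differences, Tm1N3 minus Tm1G3 in knockout hosts, of the genes (points) of the 33 lists with at least 5 measured genes, number of genes in brackets, with the list median (black bar). The medians lie between -0.23 and 0.05, and the genes past the threshold (red, drawn in each list that holds them) reach from -1.98 to 0.90. Havcr2 is not drawn, since its list has 4 genes.

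The macrophage and fibroblast marker lists varied more between the arrays of Tm1N3 tumours than between lines. The 6 measured macrophage and monocyte markers all had negative differences with a median of -0.22, and none passed. Their mean log2 level was 7.14, 6.69 and 6.62 in Tm1G3 and 5.97, 6.26 and 7.51 in Tm1N3 replicates 1, 2 and 3, so that Tm1N3 tumours held both the lowest and the highest array. Their summed linear level ran from 828 to 1140 in Tm1G3 and from 465 to 1607 in Tm1N3 tumours. Csf1r, the receptor of macrophage growth factor, was 6.55, 7.03 and 8.55 in Tm1N3 (-0.24 ± 0.54, limma adjusted p = 0.976). Adgre1, which encodes the antigen F4/80, differed by -0.28 ± 0.62, and Mrc1, the mannose receptor, by -0.45 ± 0.41 (adjusted p = 0.976 and 0.867). Without Tm1N3 replicate 1 the differences of Csf1r and Adgre1 turned to 0.17 and 0.06. The 9 fibroblast and matrix genes were likewise highest in Tm1N3 replicate 3 and lowest in Tm1N3 replicate 1, with a mean of 6.87, 6.35 and 6.62 in Tm1G3 and 5.96, 6.29 and 7.17 in Tm1N3 tumours, and summed levels from 1401 to 2472 and from 971 to 3614. The 5 endothelial markers ran from 7.65 to 8.06 in Tm1G3 and from 7.31 to 7.94 in Tm1N3 tumours, and the 7 T and NK cell markers from 4.59 to 4.75 and from 4.48 to 4.59. The T and NK cell list includes the chemokine Ccl5, its most negative difference (-0.76), while its median difference was -0.02. In bulk tumours fewer cells of a type and less RNA per cell cannot be told apart.

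**Figure D4:**
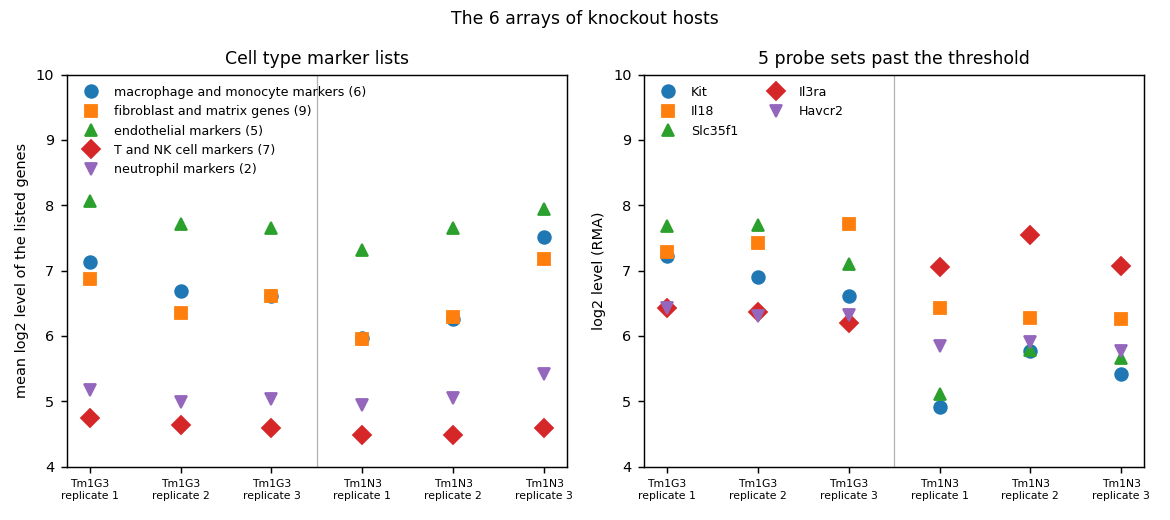
Mean log2 level of 5 cell type marker lists (left) and log2 level of 5 probe sets past the threshold (right) on the 6 arrays of knockout hosts, with a vertical line between the lines. All 5 lists are lowest in Tm1N3 replicate 1, the T and NK cell list by little (4.48, against 4.49 in Tm1N3 replicate 2). The macrophage, fibroblast and neutrophil lists are highest in Tm1N3 replicate 3. Kit, Il18, Slc35f1 and Havcr2 are lower and Il3ra higher on all 3 Tm1N3 arrays.

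Of the genes that passed, Il18, Havcr2, Il17rd and Il17rc were lowest in Tm1N3 replicate 3, the array highest in macrophage markers. For Il18 that array was close to replicate 2 (6.25 and 6.28). Frem1, Kit and Slc35f1 were lowest in Tm1N3 replicate 1, the array lowest in macrophage markers. For Frem1 that array was close to replicate 3 (3.73 and 3.75). With the mean macrophage marker level of each array as a covariate, a fit chosen after seeing the data, all 9 passed again (limma adjusted p from 0.000843 to 0.0351), and 25 probe sets passed in all. Sdc2, Hpse, Fbln5, Angptl2, Hes1, Fgf1, Mgat3, B4galt4 and Icam2 were among those added. The covariate is a mean of 6 genes, and whether cell make-up bears on the calls was not tested. Without both Tm1N3 replicate 1 and replicate 3, a choice made after seeing the data that leaves 1 Tm1N3 array assumed to vary like the others, 0 probe sets passed with limma, 73 had an unadjusted p under 0.05, and all 9 kept their sign (Il18, Frem1 and Il3ra each with an adjusted p of 0.0549).

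None of 30 chemokines, which draw leukocytes into tissue, passed. Negative differences were found for 22 of the 30, with a median of -0.09, beside 485 of all 908 named genes with a median of -0.01. At an unadjusted p under 0.05, 2 of the 30 were lower, a share near the 6.34% of all probe sets. Ccl5, which attracts T cells and monocytes, was 8.18, 8.05 and 8.19 in Tm1N3 and 8.95, 9.08 and 8.67 in Tm1G3 tumours, with no overlap (-0.76 ± 0.17, limma adjusted p = 0.0819). Cxcl12, which binds Cxcr4, was 6.56, 6.71 and 7.14 in Tm1N3 and 8.12, 7.55 and 7.18 in Tm1G3 tumours by one probe set (-0.81 ± 0.31, adjusted p = 0.371), and a second probe set gave -0.38. The median of the list was -0.34 without Tm1N3 replicate 3 and 0.01 without Tm1N3 replicate 1, so its sign rested on that array. L1cam, a neural adhesion molecule, was 6.83, 7.94 and 7.62 in Tm1N3 and 8.82, 8.21 and 8.32 in Tm1G3 tumours (-0.99 ± 0.37, adjusted p = 0.367). Icam2, an adhesion molecule of endothelium and leukocytes, differed by -0.51 ± 0.12 (adjusted p = 0.0921).

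The same contrast in wild-type hosts and the interaction of line and host address whether the differences depend on the host. For all 9 genes the difference in wild-type hosts had the same sign. The log2 differences in wild-type hosts were -1.25 for Il18, -0.83 for Frem1, -0.71 for Il17rd, 1.00 for Il3ra and 0.37 for B3galt4, each with a limma adjusted p under 0.05. They were -1.33 for Slc35f1, -0.40 for Il17rc, -0.30 for Havcr2 and -0.44 for Kit, which did not pass (adjusted p = 0.0684, 0.0675, 0.0565 and 0.428). In all 11 probe sets passed in wild-type hosts (0.883%). Of the 118 probe sets at an unadjusted p under 0.05 in knockout hosts, 103 had the same sign in wild-type hosts. The same-sign share over all probe sets was not counted, so 103 has no background beside it. The 2 comparisons share no arrays but share the estimate of spread. Deviations of same-numbered arrays of a line also correlated between hosts, from 0.184 to 0.752 for Tm1N3 and from 0.249 to 0.308 for Tm1G3.

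No difference was shown to depend on the host. The interaction of line and host passed for 0 of 1246 probe sets by limma (0%), the smallest adjusted p was 0.996, and 35 probe sets had an unadjusted p under 0.05 (2.81%). Kit had the largest interaction of the 9. Its levels in wild-type hosts gave a difference of -0.44 ± 0.21 beside -1.55 ± 0.21 in knockout hosts, and the difference between them was -1.12 with a 95% interval from -1.78 to -0.45 (limma adjusted p = 0.996). For Havcr2 the interaction was -0.21, with a 95% interval from -0.418 to -0.00561 (limma adjusted p = 0.996). The 95% intervals are not adjusted for the number of probe sets. For Il18 the interval ran from -0.26 to 0.45 and for Frem1 from -0.33 to 0.21. For Slc35f1, the least precise of them, it ran from -1.62 to 0.32. Among the other small p-values, Igfbp4, a binding protein of insulin-like growth factors, differed by -0.05 in knockout and 0.33 in wild-type hosts, Asah1, the acid ceramidase, by -0.03 and 0.33, and Cd72, a receptor of B cells and other leukocytes, by 0.06 and 0.78, all with an interaction adjusted p of 0.996. Hs3st1 and Mcoln3, which passed in wild-type hosts (2.24 and 1.22, adjusted p = 0.0229 and 0.0154), had smaller differences of the same sign in knockout hosts.

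**Figure D5:**
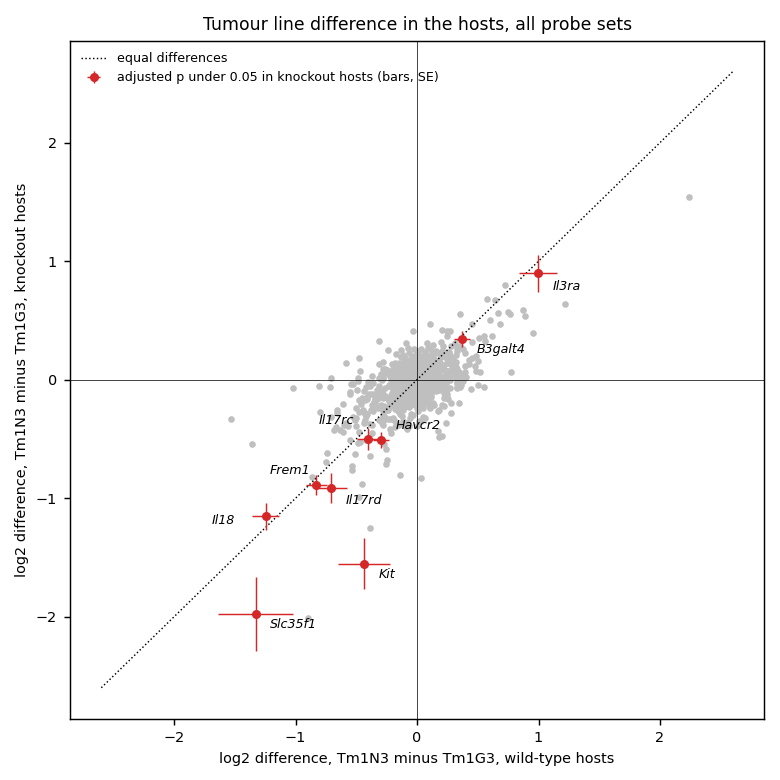
Log2 difference, Tm1N3 minus Tm1G3, in wild-type hosts (horizontal axis) against knockout hosts (vertical axis) for all 1246 probe sets (grey points), with the 9 past the threshold in knockout hosts in red, bars of 1 SE and a dotted line of equal differences. All 9 lie on the same side of 0 in both hosts, and Kit (-0.44 and -1.55) lies farthest from the dotted line among the 9.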

How the data were processed

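Trizol-extracted total RNA of the tumours was made into biotinylated cRNA for Affymetrix arrays, per the labels' protocols. The authors deposited log2 values made by RMA, which corrects background, equalizes the arrays' distributions and summarizes probes, per the submitters' processing notes (version not given). Array type, scan and background data were not used here, so signal over background is unknown. The deposited log2 values were used as they stand.

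RefSeq accessions in probe-set names were matched to mouse symbols of GRCm38.p6. Of 1246 probe sets, 962 matched 1 symbol (908 symbols), 261 had UCSC-style names, 22 RefSeq names did not match and 1 had another accession. A suffix a, s or x, which marks probes that can match more than 1 transcript, was on 366. A gene's brightest probe set represented it in lists.

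With limma 3.58.1 (R 4.3.3), lmFit took the 12 arrays as 4 group means, and eBayes moderated the spread (8 residual and 2.39 prior degrees of freedom). P-values were adjusted by Benjamini-Hochberg over 1246 probe sets, with a threshold of 0.05. The procedure was tested on simulated data. Errors of differences are moderated SE, and fold changes are antilogs. Gene lists were described by counts and medians, with no test. Named genes were those past the threshold in either host, up to 14 a side with the largest differences at an unadjusted p under 0.05 without overlap, Lgals3, up to 4 a list by p and the 5 of smallest interaction p. Members named beyond that rule (Lgals9, Lgals1, Il17ra, Pf4, Cxcl2, Hexa) were chosen after their values were seen. Not every gene that these rules meet is described. The comparison, the members and the lists were chosen with earlier results of these data known. Alternatives were other normalizations, filters, spread estimates and blocks, and each array left out.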

Additional observations from a re-analysis of the deposited data

How the results depend on the processing

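Of the 9 probe sets called between lines in knockout hosts, only Il18, Frem1 and Slc35f1 passed when just the arrays compared were fitted. Havcr2, Kit, Il17rd, Il3ra, Il17rc and B3galt4 did not pass there. Il18, Frem1, Havcr2, Kit and Il17rd passed in all 12 fits that left out 1 array, Slc35f1 in 9, Il3ra in 5, Il17rc in 2 and B3galt4 in 2. The count ran from 5 to 13 over those fits, was 4 with only the arrays compared (Il18, Frem1 and Slc35f1 among them), 55 with array weights (all 9 among them), and, by choices made after seeing the data, 25 with the macrophage covariate and 0 without Tm1N3 replicates 1 and 3 of the knockout hosts. For wild-type hosts, against 11, the counts were 3 with only the arrays compared, 6 with arrays centred on their medians, 48 with weights, 40 with the covariate, 22 without those 2 arrays, and from 2 to 21 with 1 array left out. The interaction count was 0 by limma under every alternative run, with 20 to 76 probe sets at an unadjusted p under 0.05. Replicate numbers are shared between lines. For replicates 1, 2 and 3 the deviations of same-numbered arrays correlated between lines at -0.660, 0.273 and -0.418 in knockout hosts. In wild-type hosts they correlated at 0.00808, 0.544 and 0.269. The signs differed within the knockout hosts, and whether the numbers pair the lines was not tested. Between the hosts of a line, same-numbered arrays correlated from 0.184 to 0.752 for Tm1N3 and from 0.249 to 0.308 for Tm1G3, which the labels do not explain. With the replicate number as a fixed block 13 probe sets passed, 8 of the 9 among them, and with a random block for each number and line 6 passed, all of them among the 9 and none higher in Tm1N3, so that Il3ra, Il17rc and B3galt4 were lost. The cause of these changes was not tested. Some differences that had not passed changed sign. With 1 array left out, values ran from -0.83 to 0.17 for Csf1r, from -0.86 to 0.058 for Adgre1, from -1.50 to 0.18 for Cxcl2, from -1.09 to 0.53 for Pf4, from -0.060 to 0.20 for Cd72, and from -0.11 to 0.021 and from -0.099 to 0.017 for the Igfbp4 probe sets, the outermost without Tm1N3 replicate 1 or 3 in the first 4. With the covariate Csf1r was 0.081, Adgre1 0.042 and Pf4 0.28. Igfbp4 was 0.047 and 0.030 without both Tm1N3 replicates, and Asah1 was 0.017 after a further quantile normalization.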

Other observations

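The probe sets that varied most among the Tm1N3 tumours of knockout hosts included chemokines, matrix genes and receptors of myeloid cells, among them Csf1r and Adgre1 described above, with Tm1N3 replicate 3 highest. Pf4, a chemokine of platelets, was 7.95, 8.76 and 11.20 in Tm1N3 replicates 1, 2 and 3 and 9.76, 9.41 and 9.17 in Tm1G3 tumours. Cxcl2, which attracts neutrophils, was 3.92, 4.88 and 7.27 against 6.02, 6.43 and 5.25. Dcn, the matrix proteoglycan decorin, was 7.47, 7.89 and 9.86 against 9.65, 8.37 and 8.80. For these genes the Tm1N3 arrays reached both above and below the Tm1G3 arrays. An SD above 1 on the log2 scale was found for 20 probe sets in the Tm1N3 and for 3 in the Tm1G3 tumours of knockout hosts, and for 2 in the Tm1N3 and 14 in the Tm1G3 tumours of wild-type hosts. Replicate 3 was the highest Tm1N3 array for 255 of 908 named genes and for all 6 macrophage markers. Replicate 1 was the highest Tm1G3 array for 381 of the 908 named genes and for all 6 macrophage markers. Whether cell make-up accounts for this spread was not tested.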
